A study of Mus musculus with 16 samples.

Results

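This account concerns microglia of mice that carried a model of Alzheimer's disease (AD), set against microglia of wild-type (WT) mice, with the Rack1 gene intact in both. The 4 libraries were taken by their labels from the microglia data of a series of 16 libraries, with WT replicates 1 and 2 on one side and AD WT replicates 1 and 2 on the other. The series as a whole crossed the AD model with a conditional deletion of Rack1 (CKO) in microglia, and sequenced both microglia and astrocytes. The product of Rack1 sits on the ribosome and binds signalling proteins such as protein kinase C. The WT libraries have the genotype label WT and the AD WT libraries the label WT AD, and no treatment is given for either. The sources used here do not give the AD transgenes or the promoter that drives them, the Cre line, the age or sex of the animals, how the cells were isolated, or which mice went into which library. The standard errors and p values below therefore measure the spread between these libraries, which may be technical.

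Microglia are the resident macrophages of the brain. They survey the tissue through motile processes and clear debris, and in the healthy brain they keep up a homeostatic program that depends on signals such as TGF-beta and CSF1. Around amyloid plaques many microglia take on a disease-associated state, which depends in part on the lipid-sensing receptor TREM2 and its adaptor TYROBP, and in which genes of lipid handling, lysosomes and adhesion are turned on while homeostatic genes are turned down. Interferon-responsive and dividing microglia have been described in the same tissue.

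The 4 libraries held between 29816708 and 30482559 expected counts. Genes were tested over all 8 microglia libraries together, with 17318 genes left after the filter on low counts. Values are CPM (counts divided by the TMM-scaled library size, per 1e6), given for replicate 1 and then replicate 2. CPM is not corrected for transcript length, so levels are compared between libraries and not between genes. Differences are log2 fold changes of AD WT minus WT with their standard error, and a gene is said to have risen, fallen or changed where its adjusted p was under 0.05 in edgeR's quasi-likelihood test with Benjamini-Hochberg adjustment over all genes tested. Summed microglial markers, such as Tmem119, P2ry12 and Siglech, came to 46824 and 48480.2 CPM in WT and 41615 and 42107 CPM in AD WT, and no other marker list exceeded 3294 CPM in WT or 3761 CPM in AD WT. In these bulk libraries fewer cells of a kind and less RNA per cell cannot be told apart.

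The sex-linked transcripts differed between the groups. Xist, which is transcribed from the inactive X chromosome of females, stood at 191 and 189 CPM in the WT libraries and 143 and 156 CPM in the AD WT libraries. The Y-linked genes Ddx3y, Eif2s3y, Kdm5d and Uty summed to 19.7 and 14.9 CPM in WT and to 70.5 and 68.4 CPM in AD WT. All 4 libraries thus held transcripts of both kinds, with more Y-linked and less Xist RNA in AD WT. Ddx3y, a Y-linked RNA helicase gene, rose by 2.15 ± 0.16 (adjusted p = 5.71e-08), and Xist fell by 0.34 ± 0.055 on the log2 scale. In the knockout libraries the gap was wider, with Y-linked sums of 1.43 and 1.26 CPM in CKO and 161 and 151 CPM in AD CKO. The proportion of male RNA and the AD model moved together in these data, and for every difference in this account they cannot be told apart.

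**Figure D1:**
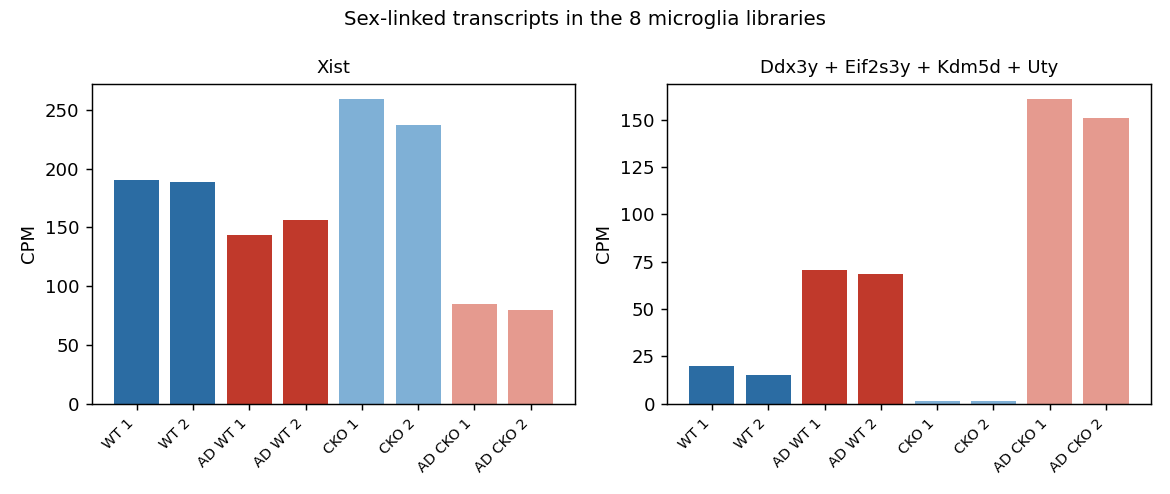
Bars give the CPM of Xist (left) and the summed CPM of 4 Y-linked genes (right) in each of the 8 microglia libraries, on axes that start at 0. The WT libraries lay at 14.9 to 19.7 CPM for the Y-linked sum and the AD WT libraries at 68.4 to 70.5 CPM, while Xist was the higher in WT.

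Between AD WT and WT, 1851 genes rose (10.7%) and 1492 fell (8.62%), while the groups did not overlap in 56.9% of genes. Every list count of AD WT against WT below is to be read beside these shares of all genes. The number that fell was 869 without AD WT replicate 1 and 780 without AD WT replicate 2. Wherever a count or call is given without a library, 1 library at a time was left out. The rises were larger than the falls: the median of the genes that rose was 0.58, and that of the genes that fell was −0.31. The median of all genes tested was −0.017. Rack1 itself, which is intact in both groups, stood at 98.1 and 95.2 CPM in the WT libraries and 113 and 115 CPM in the AD WT libraries and was a little higher in AD WT (0.24 ± 0.058, adjusted p = 0.00334), a call that was lost without AD WT replicate 2 (adjusted p = 0.0533).

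The plainest result was in the disease-associated program. Its gene list, like the others, was chosen with earlier results of these data known, so its counts are a description and not an independent test. All 35 genes of that list rose, with a median of 0.99, and in all of them both AD WT libraries lay above both WT libraries, where 10.7% of all genes rose and 56.9% had groups that did not overlap. The smallest rise was that of Fth1, the ferritin heavy chain that stores iron (0.44 ± 0.031), and the largest that of Baiap2l2, which encodes a membrane-bending adaptor (2.06 ± 0.12). All 35 also rose in every alternative fit that was run, each with another tool, scaling, filter or model term or with fewer libraries. By role, genes classed as intracellular proteins had a median of 1.54, and secreted factors and lipid carriers one of 1.47. Receptors and other surface proteins had one of 0.84, and cathepsins with their inhibitor and lysozyme one of 0.84.

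Among the surface proteins, Itgax, which encodes the integrin subunit CD11c, stood at 56.1 and 57.5 CPM in the WT libraries and 223 and 236 CPM in the AD WT libraries. Its rise of 2.01 ± 0.057 was the largest of the 13 surface genes. Axl, which encodes a receptor tyrosine kinase that recognises dying cells through its ligand GAS6, went from 183 and 187 CPM to 624 and 635 CPM (1.77 ± 0.042). Its relative Mertk, which does the same task in homeostatic microglia, stood at 886 and 873 CPM in WT and 840.1 and 849.8 CPM in AD WT and did not pass (−0.058 ± 0.039, adjusted p = 0.345). Clec7a, which encodes the glucan receptor dectin-1, went from 184 and 198 to 592 and 579 CPM (1.61 ± 0.046). The inhibitory receptor gene Lilrb4a rose by 1.24 ± 0.050 and Gpnmb, which encodes a lysosomal and surface glycoprotein, by 1.88 ± 0.074. Trem2 had the smallest change of this group, from 1109 and 1181 to 1577 and 1572 CPM (0.46 ± 0.040), and Tyrobp went from 1318 and 1264 to 2159.7 and 2151 CPM (0.74 ± 0.043). The tetraspanin genes Cd9 (0.69) and Cd63 (0.94) and the lysosomal glycoprotein gene Cd68 (0.57) rose as well.

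Of the secreted products, Igf1, which encodes an insulin-like growth factor, went from 23.8 and 21.6 to 82.6 and 86.3 CPM, a rise of 1.89 ± 0.070. Csf1, the ligand of the receptor on which microglia depend for survival, went from 78.2 and 83.9 to 280.1 and 271 CPM (1.77 ± 0.055). Its receptor gene Csf1r moved the other way, from 12168 and 12606 to 10723 and 10980.3 CPM (−0.19 ± 0.029, adjusted p = 1.14e-05). Lipoprotein lipase, the product of Lpl, had 119 and 115 CPM in WT and 389 and 373 CPM in AD WT (1.70 ± 0.047). Apoe, the main lipid carrier of the brain, went from 3341 and 3721 to 9608 and 9757 CPM (1.46 ± 0.041), and Spp1, the gene of osteopontin, from 172 and 166 to 482 and 467 CPM (1.49 ± 0.044). In each of these genes other than Csf1r both AD WT libraries were the higher.

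Cst7, which encodes cystatin F, an inhibitor of cathepsins, had the smallest p of all genes. It stood at 332 and 331 CPM in the WT libraries and 1341 and 1319 CPM in the AD WT libraries, a rise of 2.00 ± 0.038 (adjusted p = 8.55e-24). The cathepsin genes rose less. Ctsd went from 22277 and 23526 to 40336 and 41371 CPM (0.84 ± 0.029) and Ctsb from 5559 and 5842 to 10172 and 10264 CPM (0.84 ± 0.030), with Ctsz at 0.74, Ctsl at 0.63 and Ctsa at 0.46. Ank, which encodes a transporter of pyrophosphate and ATP, rose by 1.84 ± 0.043, the fatty acid binding protein gene Fabp5 by 1.62 ± 0.092 and Ch25h, which makes 25-hydroxycholesterol, by 1.53 ± 0.099.

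**Figure D2:**
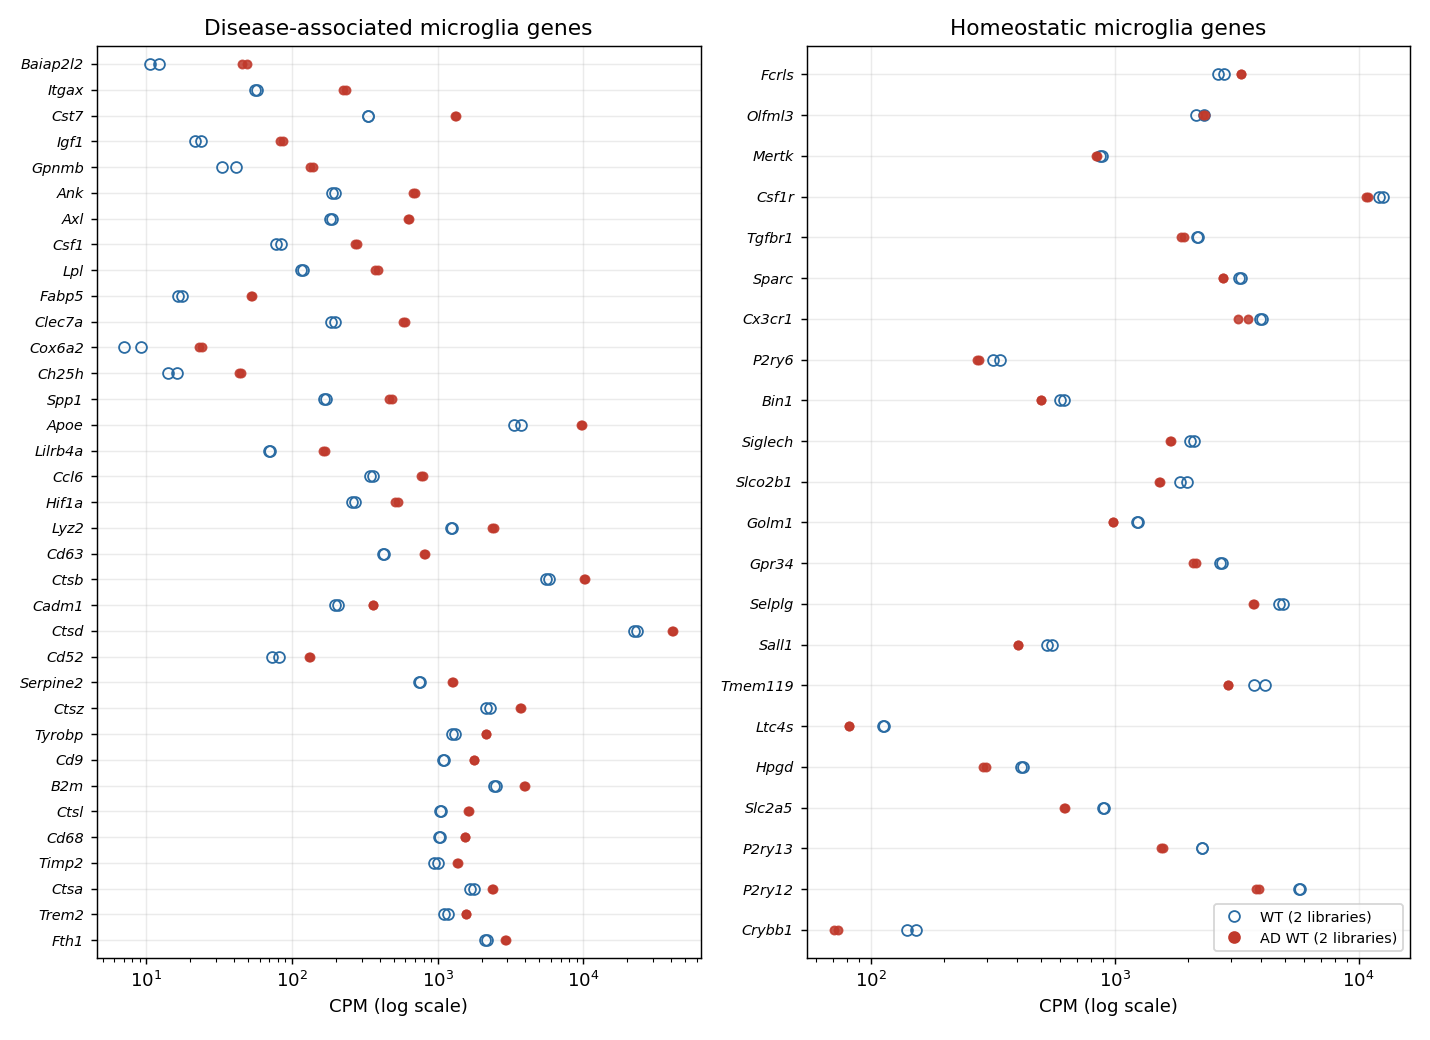
Each row is a gene and each point a library, with CPM on a log axis (open blue, WT; filled red, AD WT; 2 libraries each). In all 35 disease-associated genes on the left the red points lie to the right of the blue ones, while 19 of the 22 homeostatic genes drawn on the right fell.

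Homeostatic genes moved the other way and by less. Of 24 genes 21 fell and 1 rose, with a median of −0.33. P2ry12, the purinergic receptor through which microglial processes sense ATP and ADP, stood at 5689 and 5775 CPM in the WT libraries and 3897 and 3791 CPM in the AD WT libraries (−0.58 ± 0.032, adjusted p = 8.07e-14). P2ry13, its neighbour in the genome and in function, went from 2290.2 and 2274 to 1576 and 1552 CPM (−0.55 ± 0.033). Tmem119, a widely used microglial marker, went from 3718 and 4145 to 2909.7 and 2912 CPM (−0.43 ± 0.058), and the fractalkine receptor gene Cx3cr1 from 3962 and 4035 to 3219 and 3508 CPM (−0.25 ± 0.053). A larger fall was that of the crystallin gene Crybb1, from 141 and 153 to 73.8 and 70.8 CPM (−1.03 ± 0.065). The fructose transporter gene Slc2a5 fell by 0.53 ± 0.040 and Hpgd, whose product breaks down prostaglandins, by 0.52 ± 0.044. Fcrls, which encodes an Fc receptor-like protein, was the exception that rose (0.27 ± 0.034), and Olfml3 (0.051 ± 0.040) and Mertk did not pass. The call of Cx3cr1 was lost without WT replicate 1 (adjusted p = 0.103) or WT replicate 2 (adjusted p = 0.146), and with the replicate block (adjusted p = 0.132).

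The transcription factor list was divided, with 5 of 26 up and 7 down. Sall1, a zinc finger factor that maintains microglial identity, fell from 527 and 556 to 403 and 403 CPM (−0.43 ± 0.040), and Maf (−0.49 ± 0.053) and Mef2a (−0.21 ± 0.041) fell too. Spi1, which encodes the lineage factor PU.1, did not pass, at 317 and 327 CPM in WT and 294 and 299.6 CPM in AD WT (−0.12 ± 0.046, adjusted p = 0.0785), and neither did Irf8 (0.076 ± 0.041) or Runx1 (0.13 ± 0.056). Bhlhe40, a repressor that has been tied to lipid handling in macrophages, rose from 20.6 and 20.1 to 53.7 and 51.1 CPM (1.36 ± 0.092). Hif1a, the oxygen-sensing factor, rose from 269 and 259 to 536 and 513 CPM (0.99 ± 0.046). Of the MiT family, which drives lysosomal genes, Mitf rose (0.48 ± 0.096) and Tfeb did not pass (−0.083 ± 0.089). Its member Tfe3 fell, a call that was lost with no filter (−0.14, adjusted p = 0.0509). The value of Tfe3 was −0.13 without WT replicate 2 and −0.088 without AD WT replicate 1, where the call was lost too.

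The TREM2 pathway was split between its receptor end and what lies downstream. Trem2, Tyrobp and the related adaptor gene Hcst, from 9.86 and 9.91 to 14.6 and 16.5 CPM (0.66 ± 0.12), all rose. Of 15 downstream kinases, lipases, exchange factors and phosphatases, 0 rose and 8 fell, with a median of −0.16, and the number that fell was 4 without AD WT replicate 1. The number that rose was 2 without AD CKO replicate 1 and 1 with AD CKO replicate 2 or CKO replicate 1 left out. Syk, the kinase that binds phosphorylated TYROBP, went from 183 and 187 to 155 and 148 CPM (−0.29 ± 0.050, adjusted p = 7.77e-05), and Plcg2, its phospholipase, from 268 and 285 to 233 and 235 CPM (−0.24 ± 0.046). The kinase gene Lyn (−0.22 ± 0.040) and the lipid phosphatase gene Inpp5d (−0.16 ± 0.038) fell as well, the latter call being lost without WT replicate 2 (adjusted p = 0.0571) or AD WT replicate 1 (adjusted p = 0.0963). In the whole list of 22 genes 10 fell, and 6 did so without AD WT replicate 1. Adam10, a protease that sheds TREM2 from the cell surface, fell by 0.25 ± 0.042, and Adam17, which does the same, did not pass (−0.052 ± 0.048).

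The interferon response rose. Of 28 genes 25 rose and 0 fell, against 10.7% and 8.62% of all genes, with a median of 0.63. The groups did not overlap in 28 of them, against 56.9% of all genes. Oas1a, which encodes a sensor of double-stranded RNA, stood at 21.2 and 23.02 CPM in the WT libraries and 47.6 and 45.03 CPM in the AD WT libraries (1.07 ± 0.077, adjusted p = 2.19e-11). Ifit3, which encodes an antiviral effector, went from 27.7 and 27.8 to 50.2 and 48.7 CPM (0.83 ± 0.072), Irf7, the factor that amplifies type I interferon, from 22.1 and 23.4 to 38.4 and 37.6 CPM (0.74 ± 0.080), and Ifitm3 from 62.8 and 59.7 to 93.7 and 96.8 CPM (0.64 ± 0.063). Cxcl10, a chemokine gene that interferon induces, rose by only 0.29 ± 0.10 (adjusted p = 0.0398), and this call was lost without WT replicate 1 (adjusted p = 0.313), AD WT replicate 2 (adjusted p = 0.470) or AD CKO replicate 2 (adjusted p = 0.0506), and with limma-voom (adjusted p = 0.125) or the 4 libraries alone (adjusted p = 0.0975). Mx1, Irf9 and Slfn2 did not pass. Oas, Ifit and Ifi genes have close copies in the genome, so the division of reads among them is uncertain.

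Many of these genes carry a sequence in their promoters that the list did not use. The window searched ran from 250 bases before to 50 bases after the start in RefSeq (GRCm38.p6), on both strands, for GAAANNGAA, the core of the interferon-stimulated response element. It was present in 14 of the 20 interferon genes with a promoter in that set (70.0%) and in 9.76% of all 27025 genes. All 14 genes with the motif rose, and 4 of 6 without it did. Their medians were 0.62 with the motif and 0.68 without it. The sequences given are 100-base stretches upstream of the start, 5′ to 3′ on the gene's strand, in which capitals mark the motif or its reverse complement, and runs longer than the motif are overlapping matches. They are shown because they carry the shared motif in genes that rose together. A match is a description of the letters and not evidence of binding.
Isg15, chr4:156200830-156200929, minus strand: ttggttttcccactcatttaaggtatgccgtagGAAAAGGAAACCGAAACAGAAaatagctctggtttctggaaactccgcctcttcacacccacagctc
Oas3, chr5:120777674-120777773, minus strand: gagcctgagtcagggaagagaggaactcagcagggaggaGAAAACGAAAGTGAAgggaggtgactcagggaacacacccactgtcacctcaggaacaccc
Ifit1, chr19:34640760-34640859, plus strand: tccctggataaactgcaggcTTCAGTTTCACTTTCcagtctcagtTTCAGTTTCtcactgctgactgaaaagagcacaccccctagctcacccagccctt
Oas1a, chr5:120907526-120907625, minus strand: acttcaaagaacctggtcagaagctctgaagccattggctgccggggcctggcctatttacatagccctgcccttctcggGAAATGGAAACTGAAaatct

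Isg15, an interferon-induced ubiquitin-like modifier, held 3 overlapping or adjoining matches and stood at 5.32 and 4.23 CPM in WT and 7.66 and 8.49 CPM in AD WT (0.76 ± 0.17). Oas3 rose by 0.65 ± 0.21, a call that was lost without WT replicate 1 (adjusted p = 0.391), AD WT replicate 1 (adjusted p = 0.0713) or AD WT replicate 2 (adjusted p = 0.174), and with limma-voom (adjusted p = 0.0580) or the 4 libraries alone (adjusted p = 0.0527), and Ifit1 rose by 0.55 ± 0.13. In Oas1a the match ended 5 bases before the start.

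Antigen presentation on MHC class I rose with it, in 9 of 14 genes with none down and a median of 0.18. The heavy chain gene H2-D1 went from 1647 and 1749 to 2918 and 3044 CPM (0.81 ± 0.035), H2-K1 from 535 and 557 to 863 and 862 CPM (0.66 ± 0.036) and the light chain gene B2m from 2532 and 2424 to 3984 and 3916 CPM (0.67 ± 0.033). H2 class I genes are near copies, which makes the split between them uncertain. Nlrc5, the transactivator of class I genes, rose by 0.90 ± 0.11. The peptide transporter subunit gene Tap1 rose by 0.30 ± 0.054, while Tap2 (0.057 ± 0.061) and the immunoproteasome gene Psmb9 (0.019 ± 0.066) did not pass. MHC class II and costimulation had 5 of 13 up and 2 down. The number up was 3 without AD WT replicate 1, and the number down was 0 without WT replicate 2 or either AD WT replicate. Cd74, the invariant chain, rose from 974 and 1046 to 1365 and 1354 CPM (0.43 ± 0.039), while H2-Ab1 did not pass (0.084 ± 0.042). Cd274, which encodes the checkpoint ligand PD-L1, rose from 29.03 and 28.6 to 51.8 and 52.5 CPM (0.86 ± 0.063).

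Lysosomal genes rose in 28 of 41 cases and fell in 1, with a median of 0.27. By role, 11 of 13 glycosidases and other hydrolases rose, 7 of 10 proteases and 8 of 15 membrane and proton pump proteins. The alpha-galactosidase gene Gla went from 10.9 and 9.64 to 22.3 and 21.8 CPM (1.11 ± 0.098), Glb1, which encodes beta-galactosidase, from 113 and 117 to 199.95 and 198 CPM (0.79 ± 0.052), and Hexa, which encodes the alpha chain of hexosaminidase, from 1257 and 1299 to 2095 and 2116 CPM (0.72 ± 0.035). Atp6v0d2, a proton pump subunit gene of osteoclasts and some macrophages, rose from 3.03 and 2.41 to 11.002 and 11.3 CPM (2.04 ± 0.17), while its widely expressed relative Atp6v0d1 did not pass (0.057 ± 0.059). Grn, the gene of progranulin, rose by 0.40 ± 0.032. Ctsc and Ctsh, which encode proteases of the same compartment, did not pass (−0.0013 ± 0.035 and 0.068 ± 0.037).

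The E-box CACGTG, the core of the element that MiT factors recognise in lysosomal genes, was present in the promoters of 12 of 31 matched lysosomal genes (38.7%), against 8.09% of all genes, in the same window. Of those with it 9 of 12 rose, and of those without it 14 of 19. Their medians were 0.47 and 0.27. Stretches upstream of 3 of the genes that rose follow with the E-box in capitals. That of Ctsd holds 1 of its 2 upstream matches.
Gla, chrX:134601145-134601244, minus strand: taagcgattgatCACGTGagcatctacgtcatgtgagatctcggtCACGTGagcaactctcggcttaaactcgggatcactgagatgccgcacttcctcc
Glb1, chr9:114400978-114401077, plus strand: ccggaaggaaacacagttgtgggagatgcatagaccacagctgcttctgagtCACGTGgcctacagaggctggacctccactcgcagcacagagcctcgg
Ctsd, chr7:142387871-142387970, minus strand: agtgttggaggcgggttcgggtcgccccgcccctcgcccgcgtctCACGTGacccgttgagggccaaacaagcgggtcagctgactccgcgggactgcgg

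Lipid handling rose in 15 of 27 genes and fell in 2, with a median of 0.53. The number that fell was 0 without AD WT replicate 1, and 1 with AD WT replicate 2, either replicate of WT, or replicate 1 of CKO or AD CKO left out. Beyond Apoe and Lpl, Nceh1, which hydrolyses cholesterol esters, went from 38.8 and 41.2 to 99.3 and 93.8 CPM (1.27 ± 0.069). Pltp, the gene of a phospholipid transfer protein, rose by 0.85 ± 0.052, and the lipid droplet coat gene Plin2 by 0.56 ± 0.062. Abca1 (0.23 ± 0.13) and Abcg1 (0.039 ± 0.069), which export cholesterol, did not pass. Cholesterol synthesis rose in 12 of 23 genes with none down and a median of 0.36. Insig1, a sterol-responsive brake on the pathway, went from 15.4 and 15.9 to 29.4 and 28.01 CPM (0.87 ± 0.10), Dhcr7, which catalyses a late step, from 29.8 and 29.7 to 49.02 and 47.9 CPM (0.71 ± 0.075), and Srebf2, its master regulator, from 49.3 and 54.6 to 71.8 and 79.3 CPM (0.54 ± 0.067). The sterol element core TCACNCCAC was found in the promoter of 1 of 17 matched genes, Hmgcs1, and in 1.44% of all genes.

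Glycolysis and hypoxia genes rose in 17 of 26 cases with none down and a median of 0.38. Pkm, which encodes pyruvate kinase, went from 526 and 554 to 866 and 886 CPM (0.70 ± 0.038), Slc2a1, a glucose transporter gene, from 182 and 177 to 286 and 303 CPM (0.71 ± 0.047), and Slc16a3, a lactate exporter gene, from 56.7 and 69.4 to 104 and 105 CPM (0.72 ± 0.069). Egln3, a hypoxia-induced prolyl hydroxylase gene, rose by 1.83 ± 0.19, and the hexokinase genes Hk1 (−0.022 ± 0.070), Hk2 (0.048 ± 0.052) and Hk3 (−0.041 ± 0.052) did not pass. Of 34 nuclear genes of oxidative phosphorylation 3 rose and 1 fell, against 10.7% and 8.62% of all genes. Their median was 0.047 (0.078 without AD WT replicate 2). Ndufa1, a complex I subunit gene, rose by 0.78 ± 0.073, while Atp5b, of the ATP synthase, did not pass (0.055 ± 0.039).

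**Figure D3:**
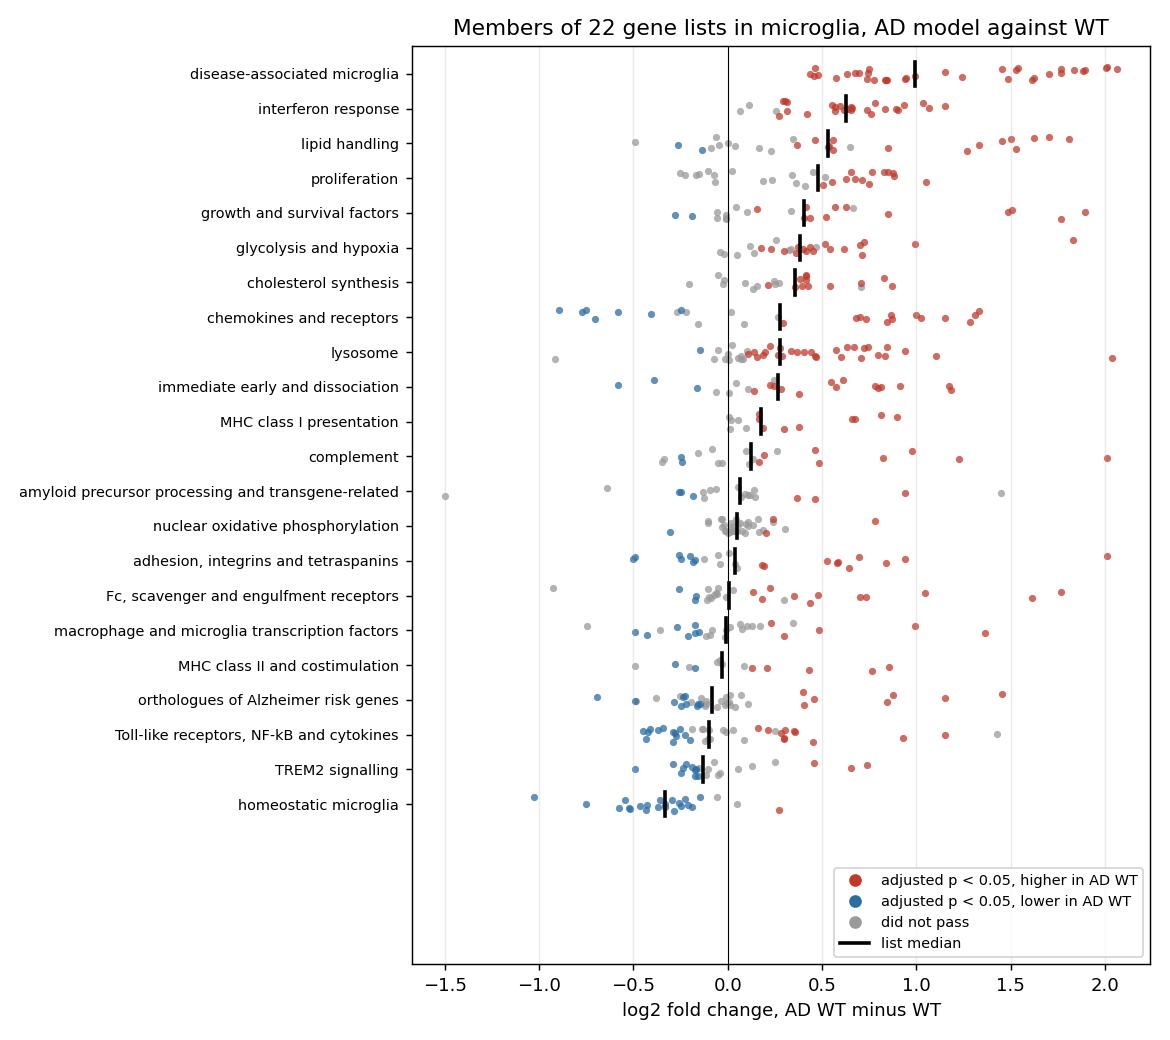
Each point is a gene of 1 of 22 lists and its position the log2 fold change of AD WT minus WT (red, rose; blue, fell; grey, did not pass at adjusted p 0.05), and bars mark the list medians. The disease-associated list lies wholly to the right with a median of 0.99 and the homeostatic list mostly to the left with a median of −0.33.

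Inflammatory genes had no common direction. In the list of Toll-like receptors, NF-kB and cytokines 11 of 37 rose and 13 fell, with a median of −0.10. Of the 10 Toll-like receptor genes 5 fell (3 without AD WT replicate 1), among them Tlr4, the endotoxin receptor gene, from 146 and 146 to 114 and 117 CPM (−0.34 ± 0.061). Tlr2 alone rose, from 203 and 194 to 278 and 266 CPM (0.45 ± 0.045). Myd88, the adaptor that most of these receptors share, fell from 108 and 107 to 83.1 and 75.9 CPM (−0.43 ± 0.060), and so did Il18 (−0.42 ± 0.093) and the pyroptosis gene Gsdmd (−0.41 ± 0.053). The cytokine gene Il1b rose a little, from 50.6 and 48.01 to 58.3 and 62.9 CPM (0.30 ± 0.074), a call that was lost without WT replicate 2 (adjusted p = 0.0506) or AD WT replicate 2 (adjusted p = 0.105). Il1rn, which encodes an antagonist of interleukin-1, rose by 0.93 ± 0.19. In the whole list 7 fell without AD WT replicate 1, 7 rose without WT replicate 1 and 6 rose without AD WT replicate 2. Il1a (−0.12 ± 0.050), Il6 (−0.10 ± 0.14) and Nlrp3 (−0.14 ± 0.098) did not pass.

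Chemokine genes were split by member, 13 of 26 up and 7 down. Ccl3 stood at 182 and 186 CPM in the WT libraries and 462 and 465 CPM in the AD WT libraries (1.33 ± 0.045) and Ccl4 at 191 and 179 CPM in WT and 448 and 454 CPM in AD WT (1.28 ± 0.049), both genes of inflammatory chemokines. The receptor genes Ccr1, from 51.6 and 47.9 to 31.1 and 27.2 CPM (−0.77 ± 0.087), and Ccr2, from 38.7 and 32.03 to 21.2 and 22.1 CPM (−0.71 ± 0.11), fell. Ccl6 rose by 1.15 ± 0.044, while the monocyte attractant gene Ccl12 fell (−0.58 ± 0.089). Without WT replicate 1 the number that fell was 4. Cxcl12, a chemokine gene that vessels also express, rose from 25.3 and 26.5 to 64.6 and 64.1 CPM (1.31 ± 0.077), and the WT astrocyte libraries held 60.7 and 63.2 CPM. Levels in astrocyte libraries were scaled within their own data and are given beside those of microglia without a test.

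In the complement list 8 of 20 rose and 2 fell, and the number that fell was 1 without WT replicate 1 or AD WT replicate 1. C1qa, C1qb and C1qc, the subunits that start the classical pathway, differed by little, with C1qb at 4820.4 and 5223 CPM in WT and 5649 and 5596 CPM in AD WT (0.16 ± 0.038) and C1qa (0.13 ± 0.14) and C1qc (0.10 ± 0.11) not passing. The call of C1qb was lost without WT replicate 1 (adjusted p = 0.0554). C3, the central component, rose from 10.4 and 9.15 to 20.3 and 18.3 CPM (0.98 ± 0.092) and its receptor gene C3ar1 by 0.48 ± 0.039, while Itgam, the alpha chain of complement receptor CR3, fell by 0.25 ± 0.034. Of the Fc, scavenger and engulfment receptors 11 of 26 rose and 3 fell, and the number that fell was 1 without WT replicate 2 or either AD WT replicate. The Fc receptor genes Fcgr1 (−0.073 ± 0.046) and Fcgr3 (0.028 ± 0.034) did not pass, and Cxcl16, which encodes a scavenger receptor and chemokine, rose from 99.4 and 95.1 to 159 and 165 CPM (0.73 ± 0.051). Adhesion genes had 10 of 23 up and 7 down, with Cadm1 at 0.84 ± 0.046 and Nrp1 at 0.52 ± 0.046 up and Itga9 at −0.50 ± 0.066 down. Without AD WT replicate 1 the number of adhesion genes that fell was 4. Growth and survival factors rose in 12 of 23 genes and fell in 2, with the number that fell at 1 without WT replicate 2 or either AD WT replicate. Csf2ra, the receptor chain gene for GM-CSF, went from 120.3 and 130.5 to 188 and 199 CPM (0.62 ± 0.054).

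Proliferation genes rose in 13 of 28 cases, all of them genes of mitosis and the late cycle, in which 13 of 17 rose with a median of 0.67. This number was 7 without WT replicate 1 and 6 without WT replicate 2. Cdk1, the mitotic kinase gene, stood at 6.83 and 8.32 CPM in the WT libraries and 14.95 and 16.5 CPM in the AD WT libraries (1.05 ± 0.15, adjusted p = 5.69e-06), and Mki67, which encodes the antigen Ki-67, at 6.70 and 7.36 CPM in WT and 11.99 and 13.3 CPM in AD WT (0.85 ± 0.18). Without WT replicate 1, and without WT replicate 2, the number of the whole list that rose was 7. Of the 11 genes of replication and G1 none passed in either direction, with a median of −0.071. The number up was 1 with WT replicate 2 or with replicate 1 of CKO or AD CKO left out, the number down 2 without WT replicate 1, and the median −0.15 without AD WT replicate 1 and −0.0046 without AD WT replicate 2. Among these were Mcm3, a subunit of the replicative helicase (−0.15 ± 0.062), and Pcna (0.19 ± 0.068). Immediate early and dissociation genes, which respond to handling as well as to signals, rose in 14 of 22 cases and fell in 3, with the number that fell at 1 without WT replicate 2 or either AD WT replicate. Egr2 (1.19 ± 0.10), Atf3 (0.91 ± 0.054) and Nr4a1 (0.78 ± 0.088) rose, Fos rose by 0.22 ± 0.040, Jun did not pass (0.045 ± 0.048), and the heat shock gene Hspa1b, which has a near-identical copy, fell (−0.58 ± 0.11). The part of handling in these values was not tested.

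Mouse orthologues of Alzheimer risk genes had 7 of 36 up, 10 down and a median of −0.085. The median was −0.039 without WT replicate 2 and −0.030 without AD WT replicate 2. Beside Apoe, Trem2, Ctsb and Grn, the protease gene Adamts1 went from 53.5 and 52.2 to 121 and 114 CPM (1.15 ± 0.076) and the sorting receptor gene Sorl1 from 77.3 and 67.9 to 99.1 and 92.3 CPM (0.40 ± 0.066). Bin1, which acts in membrane curvature, fell from 598 and 619 to 500.1 and 499 CPM (−0.29 ± 0.039), and Cass4 (−0.69 ± 0.090), Ms4a6d (−0.49 ± 0.054) and Cd33, a sialic acid-binding receptor gene (−0.22 ± 0.040), also fell. In the amyloid precursor list 3 of 20 rose and 3 fell, and the number that fell was 1 without AD WT replicate 2. App, the gene of the precursor itself, stood at 272 and 284 CPM in the WT libraries and 294 and 304 CPM in the AD WT libraries and did not pass (0.11 ± 0.044, adjusted p = 0.0958). Aplp2, a relative of App, rose from 324 and 322 to 615 and 625 CPM (0.94 ± 0.043), as did Ece1, which encodes an amyloid-degrading protease (0.46 ± 0.075), and the prion protein gene Prnp (0.37 ± 0.085). Aplp1, another relative, fell. Its call was lost with DESeq2 (−0.25, adjusted p = 0.0653) or no filter (−0.25, adjusted p = 0.0520). It was also lost without any 1 library of WT or AD WT, or without AD CKO replicate 1. These counts are those of mouse genes, and reads of a human transgene were not separated here.

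The rule for naming genes also put forward the 15 largest rises and 15 largest falls among genes of at least 5 CPM. Mamdc2 stood at 11.2 and 13.2 CPM in the WT libraries and 59.8 and 56.4 CPM in the AD WT libraries (2.25 ± 0.11), and Dkk2, which encodes a secreted Wnt modulator, went from 2.93 and 2.21 to 13.8 and 12.8 CPM (2.37 ± 0.20). Gfap, the intermediate filament gene of astrocytes, went from 15.6 and 16.7 to 110.2 and 116 CPM (2.81 ± 0.072). The astrocyte libraries held 152 and 153 CPM of Gfap in WT and 235 and 243 CPM in AD WT. Among further rises were the actin-related gene Actr3b (1.90 ± 0.14), the zinc transporter gene Tmem163 (2.00 ± 0.18), Pianp (1.98 ± 0.16), Lgi2 (2.14 ± 0.23) and the cation channel gene Trpm1 (2.03 ± 0.28). The largest fall was that of Tmem87a, which encodes a membrane protein of the Golgi, from 33.02 and 30.1 to 5.62 and 6.22 CPM (−2.41 ± 0.12). Gatm, the gene of the first enzyme of creatine synthesis, fell from 489.9 and 492 to 200.3 and 202 CPM (−1.29 ± 0.043). With knocked-out Rack1 the AD effects on Tmem87a and Gatm had the opposite sign (1.79 and 0.78). The 2.45 Mb of chromosome 2 from Tmem87a to Sqor held 44 tested genes, of which 6 rose and 5 fell. Tmem87a, at 1 end of this stretch, was picked by its fall and is itself among the 5. Of all genes 10.7% rose and 8.62% fell. Whether position on the chromosome had a part in these values was not tested. The falls also included Gpr165, an orphan receptor gene, from 78.8 and 84.8 to 34.2 and 34.9 CPM (−1.24 ± 0.093), Qpct, which encodes a glutaminyl cyclase, from 24.4 and 24.4 to 5.96 and 4.95 CPM (−2.16 ± 0.15), and Ptger3, a prostaglandin E2 receptor gene, from 15.5 and 14.9 to 4.43 and 4.78 CPM (−1.72 ± 0.20). Serpinf1, the gene of pigment epithelium-derived factor (−1.06 ± 0.098), Siglecg (−1.40 ± 0.18) and the lectin gene Mgl2 (−1.11 ± 0.10) fell too.

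Several genes that moved strongly belong to no list and were chosen after their values were seen. Ctse, which encodes an aspartic protease of the endosome, stood at 94.1 and 93.1 CPM in the WT libraries and 327 and 319 CPM in the AD WT libraries (1.79 ± 0.046). Pdcd1, the gene of the checkpoint receptor PD-1, went from 35.8 and 36.5 to 94.5 and 99.7 CPM (1.43 ± 0.059), and Cd22, a sialic acid-binding inhibitory receptor gene, from 18.3 and 18.9 to 48.1 and 47.6 CPM (1.36 ± 0.085). Rab7b, a small GTPase gene of late endosomes (1.89 ± 0.084), the heparanase gene Hpse (1.73 ± 0.10), Hcar2, which encodes a receptor for butyrate and niacin (1.11 ± 0.061), and the phospholipase-like gene Pld3, from 316 and 346 to 640.02 and 657 CPM (0.97 ± 0.047), also rose. Lgals3bp, which encodes a galectin-3 binding protein, rose from 454 and 486 to 1025 and 1079.95 CPM (1.16 ± 0.041).

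Markers of other cells were present and some moved with the AD model. Endothelial markers rose in 9 of 9 genes and summed to 515 and 506 CPM in WT and 889 and 877 CPM in AD WT, with Cldn5, a tight junction gene, going from 57.3 and 63.8 to 117 and 114 CPM (0.93 ± 0.069). Mural markers rose in 8 of 8 genes and summed to 216 and 221 CPM in WT and 338 and 344 CPM in AD WT. Neutrophil markers rose in 8 of 8 genes and summed to 264 and 248 CPM in WT and 473 and 471 CPM in AD WT, with the granule gene Ltf at 1.11 ± 0.069. Astrocyte markers summed to 334 and 339 CPM in WT and 422 and 429 CPM in AD WT, with 3 of 10 up and 1 down. Gfap, Slc1a2 (0.65 ± 0.12) and Aldh1l1 (0.67 ± 0.19) rose and Slc1a3 (−0.22 ± 0.048) fell, and the median of the list was 0.16, or 0.058 without WT replicate 1. The call of Aldh1l1 was lost without WT replicate 1 (adjusted p = 0.193), AD WT replicate 1 (adjusted p = 0.0669) or AD WT replicate 2 (adjusted p = 0.0847).

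Oligodendrocyte markers summed to 3152 and 3294 CPM in WT and 3759 and 3761 CPM in AD WT (3 of 10 up, 4 down, with the number down at 2 without WT replicate 2 and 1 without AD WT replicate 2), and oligodendrocyte precursor markers to 14.4 and 17.9 CPM in WT and 24.4 and 29.5 CPM in AD WT (1 of 5 up and none down, with the number down at 1 without either AD CKO replicate). Neuron markers summed to 21.2 and 17.8 CPM in WT and 22.4 and 20.4 CPM in AD WT (1 of 12 up and none down, with the number up at 0 without AD WT replicate 1), and fibroblast markers to 10.2 and 10.7 CPM in WT and 15.7 and 15.3 CPM in AD WT, with no member of 6 passing. Ependymal and choroid markers summed to 1529.8 and 1474 CPM in WT and 1145 and 1137 CPM in AD WT, with 2 of 8 down and none up. Border macrophage markers summed to 216 and 215 CPM in WT and 187 and 186 CPM in AD WT, with 1 up and 3 down of 8, and the number down was 1 without WT replicate 1 or either AD WT replicate. Monocyte markers summed to 125 and 124 CPM in WT and 165 and 172 CPM in AD WT (3 up and 1 down of 6). Lymphocyte markers summed to 721 and 747 CPM in WT and 656 and 651 CPM in AD WT, with 1 up and 2 down of 11, and the number down was 1 without WT replicate 2 or either AD WT replicate. Erythroid markers summed to 24.2 and 18.2 CPM in WT and 12.1 and 11.1 CPM in AD WT, with 2 of 4 down, and the number down was 0 without WT replicate 1 and 1 without AD WT replicate 2. The part of such cells in the changes of other genes, among them growth factor, chemokine, proliferation and glucose transporter genes, was not tested.

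**Figure D4:**
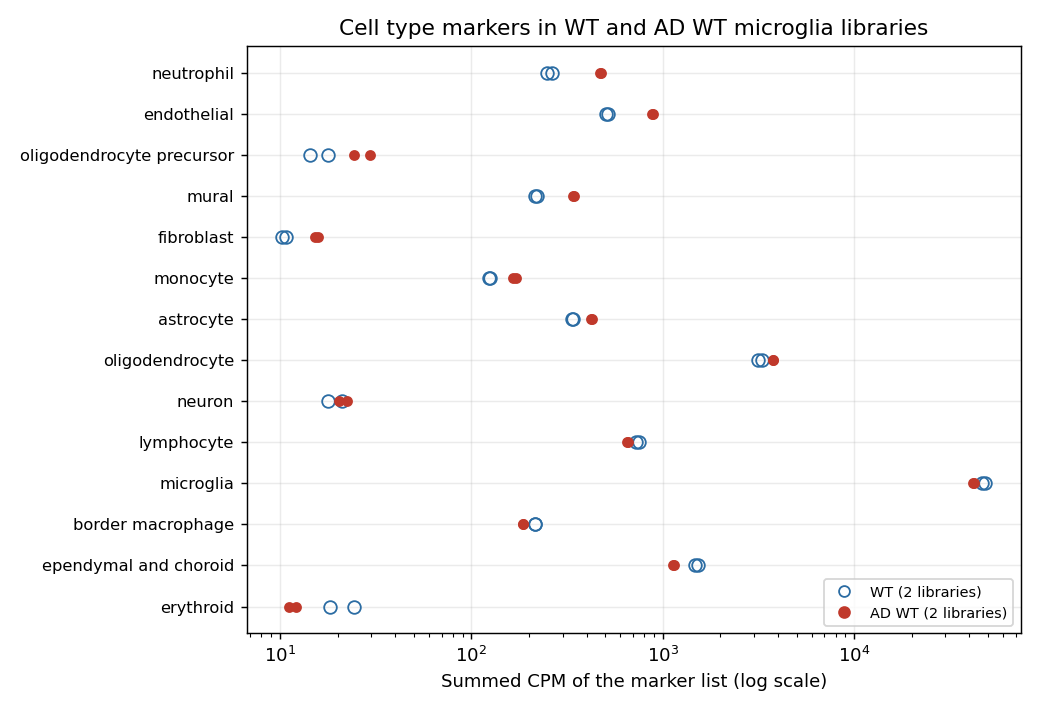
Each row is a list of cell type markers and each point the summed CPM of 1 library, on a log axis (open blue, WT; filled red, AD WT). Microglial markers are far to the right of all other lists and lower in AD WT, and the endothelial, mural and neutrophil sums are higher in AD WT.

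Whether the effect of the AD model differed with Rack1 was tested in the same fit, as the AD effect in knockout microglia (AD CKO minus CKO) minus that in intact microglia. The 2 AD effects share no library, but the sex-linked transcripts differ far more between CKO and AD CKO than between WT and AD WT, so the share of male RNA and the knockout cannot be told apart here either. Of all genes 957 (5.53%) had a higher and 1245 (7.19%) a lower AD effect in the knockout. The first number was 583 without AD WT replicate 1 and 526 without AD WT replicate 2. In the disease-associated list the difference passed in 7 genes upward and 19 downward of 35, and the list's median AD effect was 0.99 with intact and 0.66 with knocked-out Rack1. Spp1 rose by 1.49 with intact Rack1 and by 2.91 with the knockout, and Lpl by 1.70 and 2.90. Apoe, in contrast, rose by 1.46 with intact Rack1 and changed by 0.081 with the knockout, and Axl by 1.77 and 0.41.

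In the homeostatic list the difference passed upward in 18 of 24 genes and downward in none, and the median AD effect was −0.33 with intact and −0.020 with knocked-out Rack1. The AD effect on Hpgd was −0.52 with intact Rack1 and 0.99 with the knockout. In the interferon list the difference passed downward in 18 of 28 genes and upward in none, with medians of 0.63 and 0.036. Oas1a of this list changed by 1.07 and −0.13. B2m, the MHC class I light chain gene, which is not in this list, changed by 0.67 and −0.011. Of 41 lysosomal genes the difference passed upward in 4 and downward in 6, where 5.53% and 7.19% of all genes passed. The downward number varied with the library left out. The list's median AD effects were 0.27 with intact and 0.35 with knocked-out Rack1. Markers of other cells differed as well. The difference passed downward in 8 of 8 neutrophil genes, 9 of 9 endothelial, 6 of 8 mural, 8 of 10 astrocyte, 6 of 10 oligodendrocyte, 7 of 12 neuron, 3 of 4 erythroid, 3 of 6 monocyte and 3 of 8 border macrophage genes, with none upward in these lists. For neuron markers the number downward was 4 without CKO replicate 1, 3 without CKO replicate 2 and 4 in each fit without replicate 2 of WT, AD WT or AD CKO, and for border macrophage markers 1 without AD CKO replicate 2, CKO replicate 1 or either replicate of AD WT. In ependymal and choroid markers it passed upward in 5 of 8 genes and downward in none, with a median difference of 1.60. In each of the lists of fibroblast, lymphocyte and oligodendrocyte precursor markers at most 1 gene passed in either direction, and at most 2 with a library left out. The part of these cells in the differences was not tested.

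**Figure D5:**
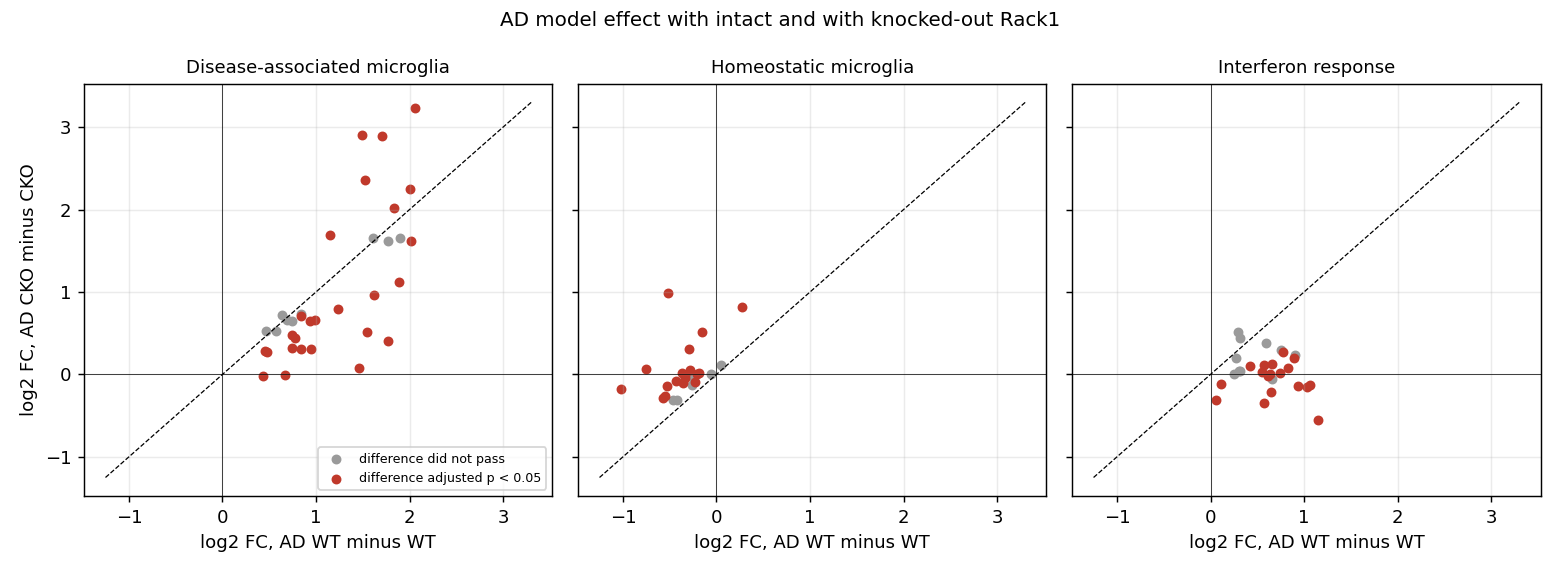
Each point is a gene, with the log2 fold change of the AD model with intact Rack1 on the horizontal axis and with knocked-out Rack1 on the vertical axis, and the dashed line marks equal effects (red, difference passed; grey, did not). Disease-associated genes lie on both sides of the line, homeostatic genes on or above it, and interferon genes mostly below it near 0 on the vertical axis.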

How the data were processed

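RNA of microglia was amplified with a low-input SMART-Seq kit and sequenced as paired reads, per the labels' protocols. Per the submitters' processing notes the tools were StringTie, HISAT2 and fastp and the genome was mm10, and no version is recorded. The counting program and the annotation are not given in the sources used here. The deposited table holds expected counts per gene, with totals that differ between libraries and no stated normalisation, and they were rounded to whole numbers here. The kit does not mark the strand, so reads of a gene and an overlapping antisense gene cannot be told apart.

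Counts of the 8 microglia libraries (27741882 to 33933068 in total) were filtered with filterByExpr, scaled with TMM and fitted by group with edgeR 4.0.16 in R 4.3.3 (robust quasi-likelihood F-test, Benjamini-Hochberg adjustment, threshold 0.05). The AD effect was AD WT minus WT, and its difference between knockout and intact microglia was tested as an interaction. The standard error is the log2 fold change divided by the square root of its F value. RLE size factors, DESeq2 1.42.0, limma-voom 3.58.1, other filters, a replicate block, the 4 libraries alone and leaving out each of the 8 libraries were tried as alternatives. The fit was tested on simulated counts. Replicates of a group differed beyond sampling noise.

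The gene lists and marker lists were chosen with earlier results of these data known. Genes were named by a rule: Rack1, the 15 largest rises and falls among passing genes of at least 5 CPM with groups that do not overlap, up to 8 passing members of each list by p and up to 4 that did not pass or went against it. Some other members of the lists are also named, and some members are counted in their lists but not reported by name here. Of the list members Marco, Il10, Bdnf, Lif, C1ql1, Neu4, Lhfpl3, Ms4a1 and Alas2 had too few counts to be tested. Promoter sequences are those of RefSeq, build GRCm38.p6.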

Additional observations from a re-analysis of the deposited data

Results flagged for a closer look

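The effect of the AD model differed between knockout and intact microglia in the genes below, each by the test of the difference itself (AD CKO minus CKO, less AD WT minus WT, in edgeR's quasi-likelihood test adjusted over all genes). They were chosen after their values were seen, and the difference in sex-linked transcripts runs through all of them. The difference is the log2 effect with the knockout minus that with intact Rack1.

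Among disease-associated genes the difference was 1.42 ± 0.062 for Spp1 (adjusted p = 8.28e-16), 1.19 ± 0.066 for Lpl (adjusted p = 1.79e-13), 1.17 ± 0.23 for Baiap2l2 (adjusted p = 9.09e-04) and 0.25 ± 0.053 for Cst7 (adjusted p = 0.00188), all larger with the knockout. It was −1.37 ± 0.057 for Apoe (adjusted p = 3.16e-10), −1.36 ± 0.058 for Axl (adjusted p = 5.37e-16), −0.46 ± 0.044 for Fth1 (adjusted p = 1.37e-08) and −0.68 ± 0.047 for B2m (adjusted p = 1.93e-11), all smaller. For Clec7a (0.038 ± 0.064) and Cd68 (−0.042 ± 0.055) it did not pass (adjusted p = 0.772 and 0.701).

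Among homeostatic genes it was 1.51 ± 0.065 for Hpgd (adjusted p = 6.67e-16) and 0.54 ± 0.049 for Fcrls (adjusted p = 4.94e-09). Oas1a of the interferon list had −1.20 ± 0.10 (adjusted p = 2.18e-09), and the glucose transporter gene Slc2a1 −0.69 ± 0.066 (adjusted p = 1.32e-08).

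Markers of other cells differed too, with −2.21 ± 0.096 for the neutrophil gene Ltf (adjusted p = 7.35e-16) and, for the astrocyte genes, −1.01 ± 0.098 for Gfap (adjusted p = 2.06e-08) and −2.15 ± 0.16 for Slc1a2 (adjusted p = 1.93e-10). Tmem87a had 4.20 ± 0.17 (adjusted p = 3.58e-16) and Gatm 2.07 ± 0.061 (adjusted p = 1.34e-19), with an AD effect of opposite sign in the knockout (1.79 and 0.78).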

How the results depend on the processing

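Of 3000 recomputed values of 200 genes, 2895 kept their direction and their side of the threshold, 74 lost the call, 13 gained one and 18 changed sign. These genes are the ones named in the text. They include the list members Fcgr2b, H2-Aa and Tnf, which rose, and Btk, Ccl2, H2-Eb1, Tlr5 and Vav1, which fell. These list members are counted among the calls of their lists but named only here. Their calls were lost without at least 1 library, as were those of some genes described above. Leaving out 1 library gave 1311 to 1972 genes up and 780 to 1489 genes down, against 1851 and 1492 with all 8, with a lone library in 1 group assumed to vary like the others. For the difference between knockout and intact microglia these ranges were 526 to 895 up and 859 to 1078 down. With another tool, scaling or filter these 4 counts over all genes stayed within 1.5 times of those reported. Some counts of the lists did not. With no filter 4 transcription factors fell, 5 genes of oxidative phosphorylation rose and 1 lipid handling gene fell. Of the genes downstream of TREM2 1 rose with no filter and 2 with the 4 libraries alone, and of the replication and G1 genes 1 rose with RLE, no filter or the filter of 1 CPM and 1 fell with the last. In lymphocyte markers 0 rose with DESeq2 and with the filter of 1 CPM. With the 4 libraries alone 1 oligodendrocyte precursor marker fell. In the erythroid list the difference between knockout and intact microglia passed downward in 1 gene with limma-voom, and in 2 oligodendrocyte precursor markers with no filter. The changes of sign were in genes that did not pass in either fit. With 1 library left out these ranged over −0.070 to 0.16 for Abcg1, −0.0089 to 0.013 for Ctsc, −0.062 to 0.020 for Hk1, −0.087 to 0.0084 for Hk3, −0.20 to 0.0056 for Il6, −0.041 to 0.14 for Jun, −0.0079 to 0.11 for Olfml3, −0.010 to 0.050 for Psmb9, −0.022 to 0.14 for Tap2 and −0.20 to 0.044 for Tfeb. Ctsc was also 0.0030 with RLE, 0.0030 with DESeq2, 0.010 with no filter and 0.0090 with the 4 libraries alone. The difference between knockout and intact microglia ranged over −0.014 to 0.093 for Clec7a and −0.095 to 0.022 for Cd68. The causes were not tested.

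Over all genes, deviations of same-numbered libraries correlated at −0.030 to 0.037, so no pairing by replicate number was seen at that scale. A value over all genes cannot show whether the numbers pair the libraries in some genes. With the replicate block 2005 genes rose and 1676 fell, and the difference passed in 1248 genes upward and 1354 downward. In the lists 1 MHC class II gene fell, 5 amyloid precursor genes rose, 1 gene downstream of TREM2 rose, 1 replication and G1 gene rose and 1 fell, and the difference passed upward in 8 lysosomal genes. Of the named genes 1 lost its call under the block, Cx3cr1. With 2 libraries a group, small differences in genes of few counts could not be detected.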

Other observations

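In astrocyte libraries Tmem87a, which fell in microglia, held 31.2 and 28.97 CPM in WT and 7.01 and 6.06 CPM in AD WT.

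Some further genes outside the lists, also chosen after their values were seen, were lower in AD WT. Adgrg1, which encodes an adhesion receptor of microglia, went from 1244 and 1327 to 886 and 906 CPM (−0.52 ± 0.038), and Upk1b, a tetraspanin gene, from 203 and 225 to 126 and 129 CPM (−0.75 ± 0.063). Cdkn1a, which encodes the cell cycle inhibitor p21, was higher (0.98 ± 0.064), at 34.4 and 30.9 CPM in WT and 66.3 and 62.8 CPM in AD WT.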
